A study of Mus musculus with 108 samples.

Results

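Mitochondrial ribosomal protein genes were followed across diet, strain and time of day in mouse liver RNA-seq. They were taken as every symbol that starts with Mrpl or Mrps followed by a digit, with pseudogene symbols left out, and each symbol was represented by its deposited transcript with the highest mean. This gave 78 genes (49 Mrpl and 29 Mrps) of 25125 symbols in each of the 3 deposited tables, and they came from 137 deposited transcripts. All livers were from male mice. The main design crossed wild-type C57BL/6J (B6) and 129S1/SvImJ (129) mice with normal chow or a diet high in fat and sucrose (D12492i, called HFD here). Time of sampling is given as zeitgeber time (ZT), counted in hours from lights on: 2, 6, 10, 14, 18 and 22, with 3 libraries each, which gives 18 libraries in each of 4 sets and 72 in all. A further 18 libraries came from 129 mice with the genotype Errg-Cre on HFD, and 18 from mice with the genotype Esrrg LKO on the same diet, over the same times. The titles of the Esrrg LKO libraries give the strain as B6, while their strain field reads B6S1/SvImJ. Those titles also name the diet as diet-induced obesity, while the diet field gives the same D12492i. The labels give no age, no driver of the Cre and no statement that replicates were separate animals, so p-values measure only the spread between these samples.

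The mitochondrial ribosome translates the few messages of the mitochondrial genome, all of which encode membrane subunits of the respiratory chain and ATP synthase. Its proteins are all encoded in the nucleus, made in the cytosol and imported, while its ribosomal RNAs come from the mitochondrial genome. Some of its proteins have bacterial homologues and line the decoding and peptidyl transfer centres, and others are specific to mitochondria and form much of the outer shell. Liver is rich in mitochondria, and the nuclear receptor family that includes Esrra and Esrrg is known for driving nuclear genes of mitochondrial function.

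By role, 30 of the 78 encode large-subunit proteins with a bacterial homologue and 21 encode mitochondria-specific large-subunit proteins. The latter include Mrps18a and Mrps30, whose products sit in the large subunit in spite of their names. The small subunit has 16 members with a bacterial homologue and 10 specific to mitochondria. The last, Mrps36, carries a ribosomal name but its product belongs to the 2-oxoglutarate dehydrogenase complex. All 78 passed the filter of a mean value of at least 10 in the wild-type table, where 11287 genes were tested, and in the Errg-Cre table. For the Esrrg LKO libraries 77 passed, and Mrps36 did not, with a mean of 4.93.

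The genes lie on 17 chromosomes, with 11 of them on chromosome 11. Their transcripts are short, with a median of 1080 bases against 3003 over all tested genes, and their median GC content was 50.6% against 49.6%. Their median level was 100.6 on the deposited quantile-normalised scale, next to 99.3 for all tested genes. Per kilobase of transcript, the median was 81.6 against 34.3. On that per-kilobase scale Mrpl24 (297), Mrpl30 (268) and Mrpl42 (254), all of the large subunit, were highest. Mrpl19 (17.9), Mrps11 (20.8) and Mrpl17 (21.1) were lowest. Thus transcripts for proteins of a single particle differed in level by more than an order of magnitude. Strand use in counting is not given in the sources used here, and 9 members overlap another symbol, 6 of them on the opposite strand. Their reads may be shared: Mrps7 with Mif4gd, Mrps25 with Nr2c2, Mrps27 with 6430562O15Rik, Mrpl24 with Rrnad1, Mrpl19 with Gcfc2 and Mrpl49 with Syvn1. On the same strand, Mrps6 shares 29138 bases with the sodium/myo-inositol transporter gene Slc5a3.

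Several members start next to another gene on the other strand. Such a divergent neighbour within 1000 bases was found for 29 of the 78 (37.2%), against 1681 of the 11287 tested genes (14.9%). One pair consists of members only: the starts of Mrps11 and Mrpl46 lie 42 bases apart on chromosome 7. Promoter windows of 300 bases (250 before the start and 50 after it, RefSeq, GRCm38.p6) were found for 69 members. The letters CCGGAAG, the core recognised by ETS factors, stood on either strand in the windows of 26 of the 69 (37.7%), against 20.6% of 8950 tested genes with a window and 9.93% of all 27025. The core GCATGCGC of nuclear respiratory factor NRF1 was in 11.6%, against 6.12% and 3.05%. The core ATGGCGG of YY1 was in 18.8%, against 9.82% and 4.69%. The estrogen-related receptor core AAGGTCA was in 5.80%, against 4.21% and 5.38%, and the clock E-box CACGTG was in 7.25%, against 12% and 8.09%. Windows of members had a median GC content of 58.7% and a median of 21 CG pairs, against 52.7% and 7 over all windows. The ETS, NRF1 and YY1 cores and the E-box each hold CG, and the part of base composition in these shares was not tested. A match is a description of letters and not evidence of a bound site.

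The stretches below stand just before the start sites (strand of the gene, 5′ to 3′, RefSeq, GRCm38.p6), and capitals mark matches to the searched letters on either strand. They are shown because the results below turn on these genes: the shared start of Mrps11 and Mrpl46, then Mrps18a and Mrpl22, which moved in opposite directions with diet in B6, Mrpl33 and Mrpl32, which moved in opposite directions in 129, and Mrps2 (diet), Mrps12 and Mrps27 (strain), whose differences were called under every alternative. Capitals and labels cover only the letters printed here. The full 300-base windows hold further matches outside them, among them a YY1 core for Mrps2 and an ETS core for Mrps12. The stretches end where the RefSeq window places the start, and the last 10 bases shown for Mrpl22 lie inside its deposited transcript, which starts earlier.
Mrps11, chr7:78783090-78783130, plus strand, all 41 bases up to Mrpl46: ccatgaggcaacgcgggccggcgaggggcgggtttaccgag
Mrps18a, chr17:46110884-46111003, plus strand, ETS core: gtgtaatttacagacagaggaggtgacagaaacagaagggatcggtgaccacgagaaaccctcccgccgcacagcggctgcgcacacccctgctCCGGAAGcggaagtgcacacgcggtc
Mrpl22, chr11:58171544-58171663, plus strand, ETS core then NRF1 core: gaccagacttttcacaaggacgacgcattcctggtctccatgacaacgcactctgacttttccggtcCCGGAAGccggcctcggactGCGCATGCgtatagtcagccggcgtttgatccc
Mrpl33, chr5:31613831-31613950, plus strand, NRF1 core: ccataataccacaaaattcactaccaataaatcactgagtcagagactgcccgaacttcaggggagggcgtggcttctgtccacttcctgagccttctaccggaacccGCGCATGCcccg
Mrpl32, chr13:14613038-14613157, minus strand, NRF1 core at 3 places: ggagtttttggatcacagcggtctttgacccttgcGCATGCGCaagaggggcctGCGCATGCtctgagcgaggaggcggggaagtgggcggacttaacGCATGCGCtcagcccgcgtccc
Mrps27, chr13:99344679-99344785, plus strand, all 107 bases up to Ptcd2, ETS core: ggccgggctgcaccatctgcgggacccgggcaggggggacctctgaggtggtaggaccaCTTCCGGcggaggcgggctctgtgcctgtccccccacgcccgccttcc
Mrps2, chr2:28467946-28468065, plus strand, no match in these 120 bases: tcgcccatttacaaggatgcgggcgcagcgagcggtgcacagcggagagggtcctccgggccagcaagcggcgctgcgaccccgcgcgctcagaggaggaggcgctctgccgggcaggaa
Mrps12, chr7:28741822-28741941, minus strand, no match in these 120 bases: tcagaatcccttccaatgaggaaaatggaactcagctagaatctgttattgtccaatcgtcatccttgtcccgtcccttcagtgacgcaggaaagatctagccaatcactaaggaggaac

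Each library of a table holds the same set of values in another order, so totals carry no depth, and the depth behind each value is unknown. What did differ between libraries was how values leaned with GC content. The slope of a library's deviations on GC averaged -0.42 ± 0.46 (SD, n = 18; log2 per 10 percentage points of GC) for B6 on chow and 0.19 ± 0.12 for B6 on HFD. For 129 it averaged 0.10 ± 0.55 on chow and 0.14 ± 0.15 on HFD. The level of the annotated microRNA gene Mir6236 moved with the same groups, with medians of 222 and 8292 in B6 (chow, HFD) and 2570 and 1104 in 129. By the share of low values B6 chow ZT14 replicate 3 stood apart, with 14.8% of tested genes below 1, and 7 members were below 1 in it: Mrpl19, Mrpl23, Mrpl36, Mrpl37, Mrpl54, Mrpl58 and Mrps36. Values without it and the other two libraries with the most genes below 1 (129 chow ZT22 replicate 3 and B6 HFD ZT6 replicate 1) are given where they matter. Of 8 Kupffer cell markers, 5 were higher on HFD in each strain. In B6, 4 of 5 tested stellate cell markers and 4 of 6 sinusoidal endothelial markers were also higher on HFD. Of 8 hepatocyte markers 2 were higher and 3 lower there. In 129 the stellate list had 1 higher, the endothelial list 2 higher and 1 lower, and the hepatocyte list 2 higher and 1 lower. Over all tested genes 27.5% were higher and 32.7% lower on HFD in B6, and 10.9% and 7.45% in 129. In 129 relative to B6, 5 Kupffer cell markers were lower on chow and 7 on HFD, and 4 of 5 tested stellate cell markers were lower on HFD. Of the hepatocyte markers 5 were higher and 1 lower in 129 on chow, and 4 were higher and 0 lower on HFD. Summed over 8 hepatocyte markers, the level ranged from 959226 to 1007995 in B6 chow, from 105840 to 1096408 in B6 HFD and from 320552 to 1093812 in 129 chow. By composition B6 HFD ZT22 replicate 3 stood apart: it had the lowest hepatocyte sum, 105840, a sum over 4 neutrophil markers of 14729 (median of B6 HFD 6.02) and a sum over 5 cholangiocyte markers of 9092 (median 364.6). Without it, 51 of the 54 diet calls in B6 given below were made again. So were 13 of the 15 strain calls on HFD and all 22 interaction calls. That run does not address the other libraries of its set, because low hepatocyte sums were not confined to this library. For B6 mice the median sum was 985058 on chow. On HFD it was 314899, which lies below the lowest chow library of that strain. For 129 mice the median went the other way, with 800029 on chow and 1039882 on HFD. In these bulk samples fewer cells of a type and less RNA per cell cannot be told apart. Because each library holds the same values, markers also read lower where other genes take the higher ranks. That cannot be told apart from the first 2 either, so the sums do not measure a share of hepatocytes. The part of the marker shifts in the results below was not tested.

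The first comparison asked how the high fat and sucrose diet changed these genes in B6 liver. Members moved in both directions: 34 of 78 rose and 20 fell (limma, adjusted p under 0.05 over all genes, all times pooled). Over all tested genes 27.5% rose and 32.7% fell. The median difference of the members was 0.14 on the log2(value + 1) scale, next to -0.06 over all tested genes. The strongest rises were in Mrpl54, Mrpl4 and Mrps11, and the strongest falls in Mrps6, Mrpl47 and Mrps10.

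Among large-subunit genes with a bacterial homologue 14 of 30 rose and 7 fell, with a median log2 difference of 0.17. Of the mitochondria-specific large-subunit genes 9 of 21 rose and 5 fell (median 0.12). In the small subunit, 9 of 16 genes with a bacterial homologue rose and 5 fell (median 0.34), and 2 of the 10 mitochondria-specific genes rose and 3 fell (median 0.06). Rising and falling genes were thus present in each of these classes. Cytosolic ribosomal protein genes moved more uniformly, with 58 of 84 higher and 8 lower on HFD in B6, and complex I genes had 18 of 36 higher and 7 lower.

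**Figure D1:**
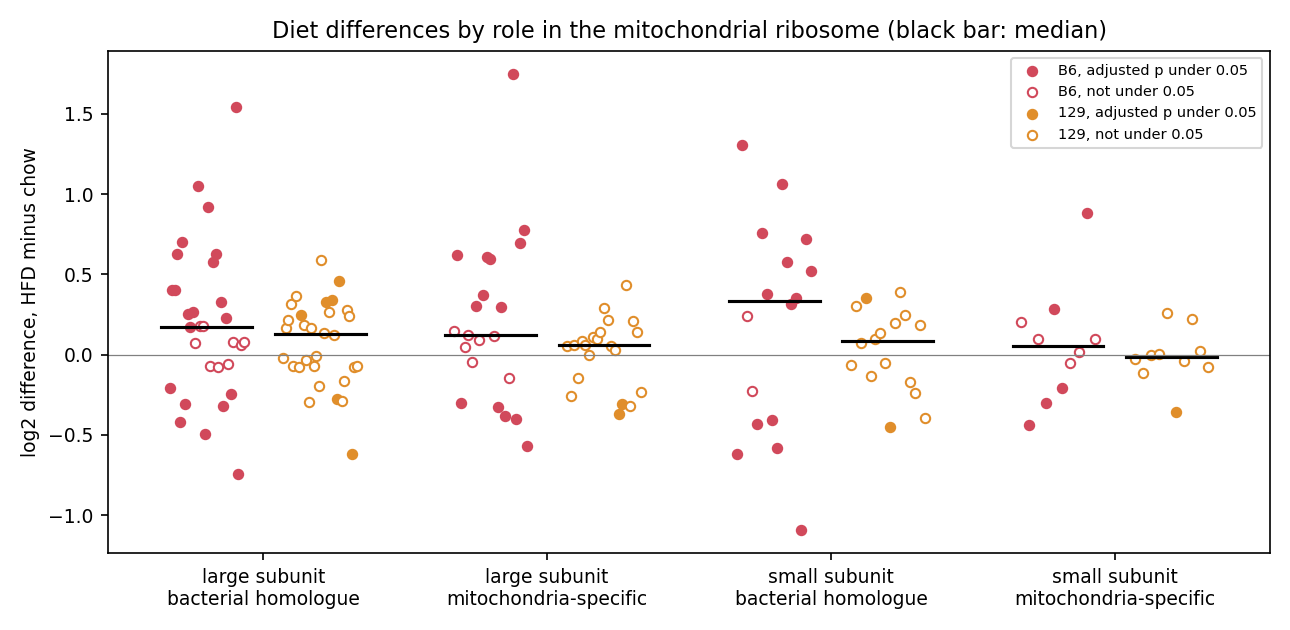
Log2 differences between HFD and chow (y axis) for 77 genes grouped by role (x axis), in B6 (red) and 129 (orange); filled points have an adjusted p under 0.05 and black bars are medians. Differences spread from -1.10 to 1.75 in B6, and in 129 only 11 genes are filled.

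Mrpl54, a mitochondria-specific large-subunit protein gene, had values in B6 chow livers from 0 to 44.6 with a median of 23.6. In B6 HFD livers they ran from 47.3 to 116.2 with a median of 58.4. Every HFD library was above every chow library, and no other member separated the diets in B6 in either direction. Of all tested genes 0.735% separated the diets in either direction. The log2 difference was 1.75 (SE 0.27, adjusted p = 2.5e-07), and 1.45 without the 3 libraries named above. Mrpl4, a core large-subunit protein gene, ran from 2.51 to 67.8 (median 24.3) on chow and from 25.3 to 102.1 (median 61.2) on HFD, so the diets overlapped. Its difference was 1.54 (SE 0.20, adjusted p = 8.36e-09).

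In the small subunit, Mrps21 was at 22.4 to 98.7 (median 56.9) on chow and 64.0 to 173.9 (median 117.5) on HFD. Its difference was 1.06 (SE 0.17). Mrps34 went from 47.1 ± 19.5 to 79.2 ± 17.6 (SD, n = 18) and Mrps7 from 179.4 ± 43.8 to 290.4 ± 37.9. Mrps18a, of the large subunit, went from 61.7 ± 17.3 to 104.0 ± 18.8. These 6 named risers lay above chow at each of the 6 times. Mrpl12, whose product forms the stalk that recruits translation factors, went from 88.2 ± 36.5 to 140.2 ± 58.4 (0.63, SE 0.15), higher at 5 of 6 times. The divergent pair rose together, Mrps11 by 1.30 (SE 0.26) and Mrpl46 by 0.61 (SE 0.14), each higher at 5 of 6 times.

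The falls were smaller in size, apart from that of Mrps6, a small-subunit protein gene. Its values ran from 25.5 to 79.9 (median 42.1) on chow and from 3.94 to 37.4 (median 19.5) on HFD, a difference of -1.10 (SE 0.16, adjusted p = 1.4e-07). Slc5a3, which overlaps it on the same strand, had a mean level of 174.7, and shared reads could not be separated here. Mrpl47, a large-subunit protein gene, ran from 50.4 to 123.2 (median 93.2) on chow and from 26.9 to 81.4 (median 54.1) on HFD. Its difference was -0.74 (SE 0.11), while its divergent neighbour Ndufb5, a complex I subunit gene starting 308 bases away, had a difference of -0.05.

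Mrps2, a small-subunit protein with a bacterial homologue, fell from 184.2 ± 23.6 to 124.5 ± 25.8, by -0.58 (SE 0.07, adjusted p = 7.26e-10). Its chow libraries ran from 137.1 to 233.1 and its HFD libraries from 73.4 to 169.1. The mean on HFD was below that on chow at each of 6 times, lowest at ZT6 with 86.1 ± 12.6 against 181.1 ± 3.5 (SD, n = 3). Mrps10 fell from 107.3 to 72.6, Mrps30 from 135.7 to 90.3 and Mrpl22 from 79.9 to 58.3, each lower at every time.

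**Figure D2:**
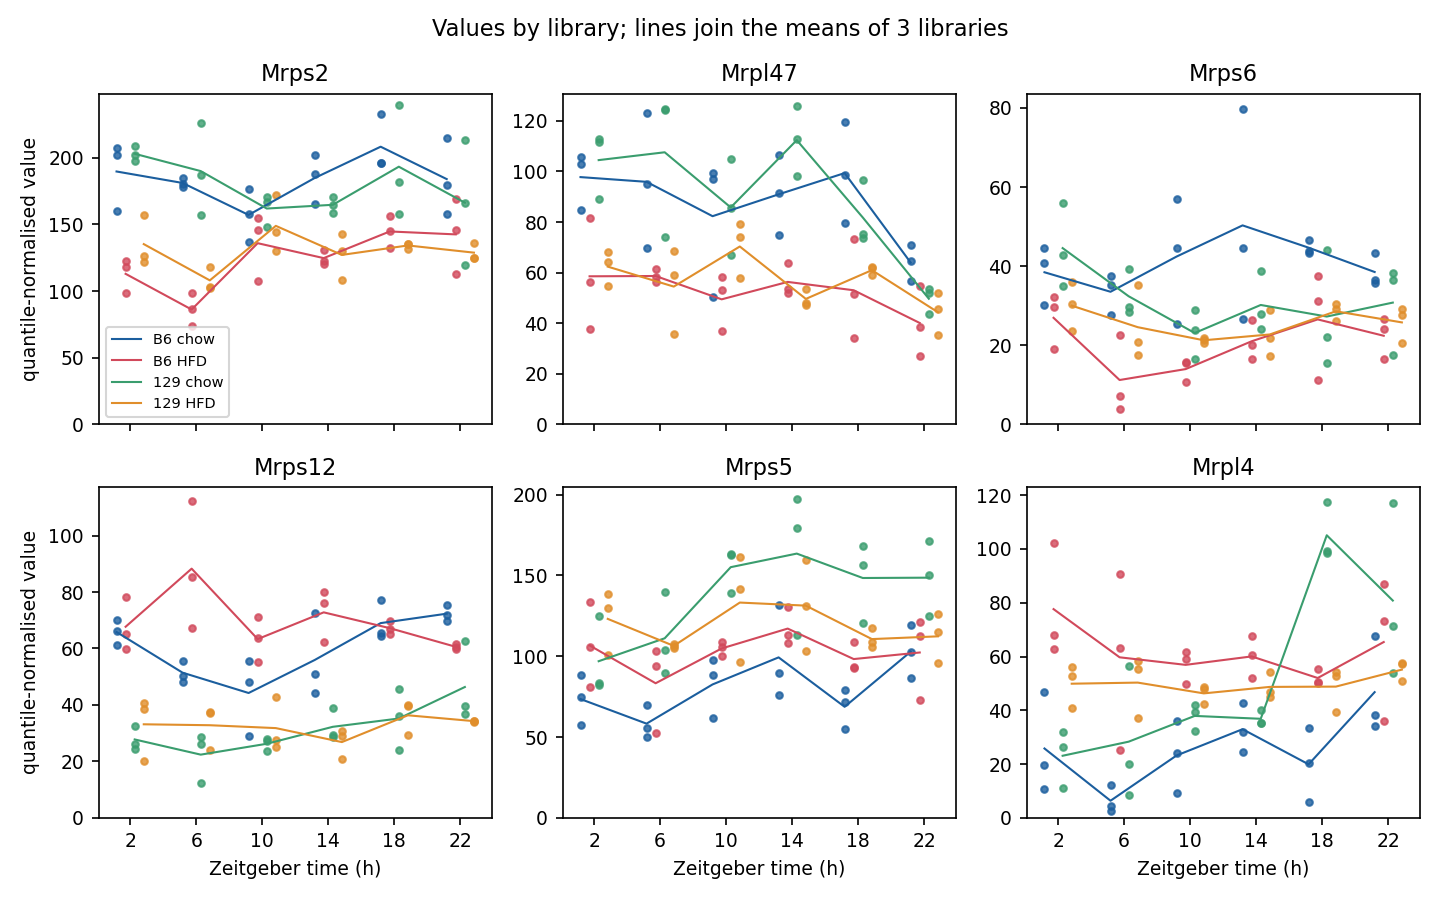
Quantile-normalised values (y axis) of 6 genes in each library by zeitgeber time (x axis); points are libraries, lines join means of 3, and colours are the 4 wild-type sets. Mrps2 and Mrpl47 lie lower on HFD in both strains, Mrps12 lies lower in 129, and Mrpl4 is widely scattered on chow.

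The direction of change followed GC content. When the members were split by GC content into 3 bands of 26 genes, the upper band (52.7% and above) had 17 rises and 3 falls on HFD in B6, with a median of 0.62. The lower band (48.4% and below) had 6 rises and 12 falls, with a median of -0.14, and the middle band had 11 and 5. Across the 78 genes the log2 difference correlated with GC content with r = 0.56, and across all tested genes with r = 0.58. Genes measured in the same libraries are not independent, so this is a description. After each library's trend with GC content and length was subtracted, 24 members were higher and 17 lower, against 24.7% and 21.6% of all genes, and the bands had 7 and 7, 9 and 5, and 8 and 5 from high to low GC. Of the 34 rises 22 were called again with the same sign, and of the 20 falls 13.

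Individual genes fared differently. Mrpl54 kept a difference of 0.83 after the correction, Mrpl4 of 0.70 and Mrps21 of 0.72. Mrps18a kept 0.18, which did not pass the test, Mrpl12 had 0.03, which did not pass either, and Mrps34 had -0.01. The falls of Mrps6 (-1.52), Mrpl47 (-0.56), Mrps10 (-0.75), Mrps2 (-0.50), Mrpl22 (-0.53) and Mrps30 (-0.30) all passed after it. With the level of Mir6236 in each library as a covariate, 1 member rose, Mrps7 (0.43, adjusted p = 0.049), and 1 fell, Mrps2 (-0.42, adjusted p = 0.027). Of the 54 calls, those 2 were the only ones made under every alternative tried. Mir6236 and diet moved together in B6, so in these fits much of their shares cannot be told apart.

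**Figure D3:**
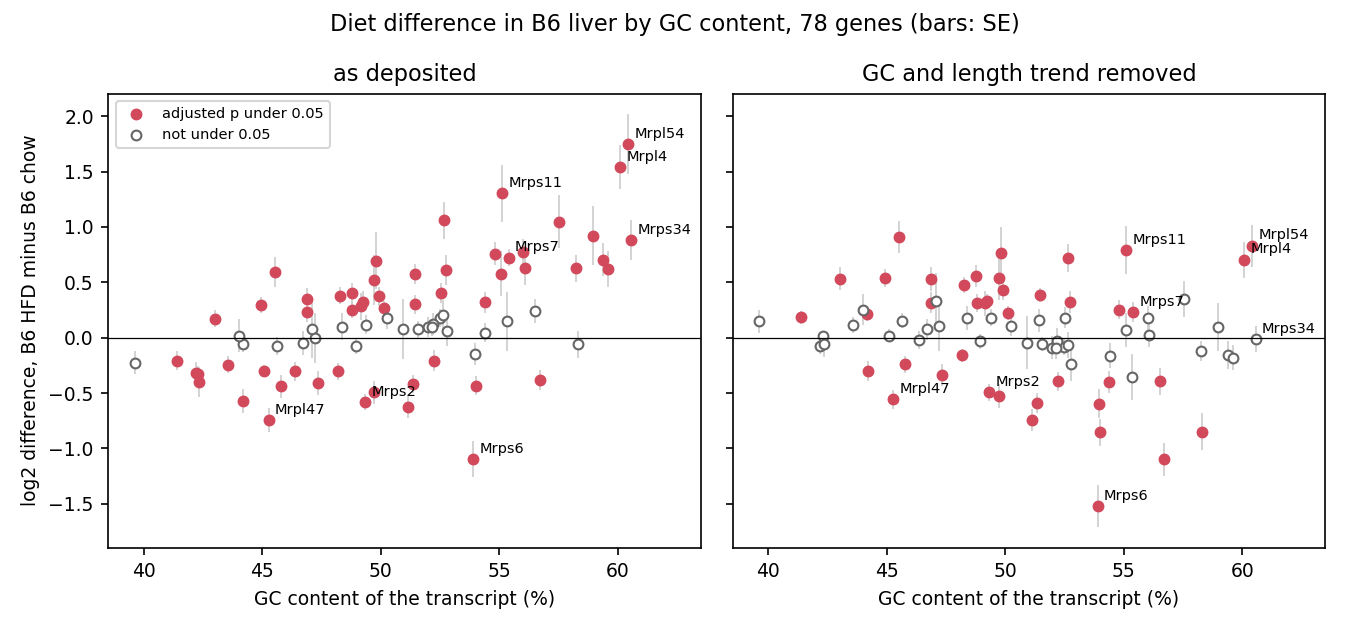
Log2 difference between B6 HFD and B6 chow (y axis, bars are SE) against transcript GC content in percent (x axis) for 78 genes, as deposited (left) and with each library's GC and length trend removed (right); red points have an adjusted p under 0.05. The upward slope on the left (r = 0.56) is absent on the right (r = -0.17), while Mrps6, Mrpl47 and Mrps2 stay below 0.

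Taken time by time, the B6 calls were unevenly spread. At ZT6, 26 members were higher and 8 lower on HFD, where 35.1% of all tested genes were called in either direction. At ZT14 there were 18 and 4 (30.2% of all genes), at ZT18 8 and 4 (23.1%) and at ZT2 5 and 6 (14.7%). The B6 chow libraries at ZT14 include replicate 3, with 14.8% of tested genes and 7 members below 1. Counts at ZT14 without that library are not given here. At ZT10 there were 2 and 2 (4.53%) and at ZT22 0 and 4 (4.77%). Where few members were called, few genes of any kind were called. At ZT6 and ZT18 the B6 chow libraries had their lowest mean GC slopes, -0.80 and -0.70, and at ZT22 and ZT10 their highest, 0.05 and -0.14.

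In 129 liver the same diet moved fewer members. HFD raised 5 of 78 and lowered 6, against 10.9% and 7.45% of all tested genes, and the median log2 difference was 0.05, next to 0.04 for all genes. After the GC correction 17 were called in either direction, against 21.2% of all genes. The 5 that rose were Mrpl33, Mrpl27, Mrpl16, Mrps14 and Mrpl3. The 6 that fell were Mrpl47, Mrps2, Mrps27, Mrpl52, Mrpl53 and Mrpl32. The count of rises depended on single libraries: it was 11 without 129 chow ZT6 replicate 3, 9 without 129 chow ZT2 replicate 1 and 8 without 129 chow ZT22 replicate 3.

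Mrpl33, a small large-subunit protein gene, ran from 52.8 to 138.0 (median 105.6) on chow and from 115.5 to 179.5 (median 141.8) on HFD in 129. The sets overlapped, and means were higher on HFD at each of 6 times (difference 0.46, SE 0.09, adjusted p = 0.000156). No member had HFD values in 129 wholly apart from chow, as 0.204% of all tested genes did. Mrpl27 rose by 0.33 and Mrpl16 by 0.25, both at 6 of 6 times. Mrps14 (0.35) and Mrpl3 (0.34) were higher at 4 of 6.

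Mrpl47 in 129 ran from 43.6 to 125.9 (median 92.9) on chow and from 35.4 to 79.2 (median 58.4) on HFD, a difference of -0.62 (SE 0.11, adjusted p = 2.83e-05). Mrps2 ran from 119.8 to 239.9 (median 170.6) on chow and from 102.6 to 172.3 (median 130.2) on HFD, a difference of -0.45 (SE 0.07, adjusted p = 1.68e-06). Both lay lower on HFD at every time in this strain too. Mrps27, a mitochondria-specific small-subunit protein gene, fell by -0.36, Mrpl52 by -0.37, Mrpl53 by -0.31 and Mrpl32 by -0.28 (adjusted p = 0.0497). Mrpl33, Mrpl47 and Mrps2 were called in 129 under every alternative.

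The B6 and 129 diet comparisons use separate libraries. They shared 8 called members, all in the same direction, which is 14.8% of the B6 calls and 72.7% of the 129 calls. In B6, 54 of the 78 members were called, so most of any group of members would be among them. The overlap over all tested genes is not given here, so these shares do not measure likeness of the strains. Mrpl32, Mrpl47, Mrpl52, Mrps2 and Mrps27 fell in both, and Mrpl16, Mrpl27 and Mrpl33 rose in both. The B6 fall of Mrps27 (-0.21) was made again in 5 of 12 alternatives, and it was -0.16 and did not pass without B6 HFD ZT22 replicate 3. At single times 129 gave few calls. At ZT2 2 members fell (4.17% of all genes called), at ZT6 1 rose and 2 fell (1.26%) and at ZT14 1 fell (0.372%). At ZT18 2 rose (5.49%), at ZT22 2 rose (6.60%), and at ZT10 none passed (0.230%), with 1 member at an unadjusted p under 0.05.

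The test of the difference itself, the diet by strain interaction, called 22 members, 8 with a higher diet difference in 129 and 14 with a lower one. Over all tested genes 34.4% were called. Most of the 22, 20 of them, were also called for diet in B6. The interaction contains the B6 diet difference and its libraries, so this overlap is partly built in. In B6, 54 of the 78 members were called in any case. The largest were in Mrpl54 (-1.32, SE 0.38, adjusted p = 0.00662), Mrpl4 (-1.30, SE 0.29) and Mrps11 (-0.999, SE 0.37), followed by Mrps9 (-0.92), Mrpl2 (-0.88) and Mrpl38 (-0.88), all with a higher diet difference in B6. In 129 none of these 6 passed the diet test, and Mrps9 and Mrpl38 had -0.40 and -0.26 there. Among those with the opposite sign were Mrps6 (0.85) and Mrps10 (0.56), which fell in B6 and had differences of smaller size in 129. After the GC correction 16 were called, against 17.0% of all genes, and 8 of the 22 kept their call and sign, among them Mrps9 (-1.05) and Mrps6 (1.14). Mrpl54 (-0.48), Mrpl4 (-0.54), Mrps11 (-0.62), Mrpl2 (-0.30) and Mrpl38 (-0.16) did not pass after it. With the Mir6236 covariate none passed, 3 had an unadjusted p under 0.05, and Mrpl54 (0.51), Mrps11 (0.51), Mrpl2 (0.34) and Mrpl38 (0.30) changed sign.

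The strain comparison on chow asked how 129 livers differ from B6 livers before the diet. Reads were aligned to mm10, which is the B6 genome, so a 129 level may read low where a transcript carries strain variants, and that part was not tested. On chow 23 members were higher and 16 lower in 129, against 25.4% and 27.5% of all tested genes. After the GC correction there were 16 and 10, against 22.4% and 17.1%, and with the Mir6236 covariate there were 2 and 4. Across the 78 genes the strain difference correlated with GC content with r = 0.52 before that step and r = -0.24 after it.

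Mrps12, whose product lies at the decoding centre of the small subunit, was the clearest strain difference. On chow its values ran from 29.0 to 77.0 (median 62.9) in B6 and from 12.3 to 62.5 (median 28.6) in 129. On HFD they ran from 55.1 to 112.2 (median 65.9) in B6 and from 20.2 to 42.7 (median 34.2) in 129. On HFD every 129 library was thus below every B6 library, which held for no other member and for 1.83% of all genes in either direction. On chow the strains overlapped for every member, and 1.23% of all genes did not overlap. The differences were -0.93 (SE 0.11, adjusted p = 5.52e-10) on chow and -1.09 (SE 0.11, adjusted p = 3.61e-12) on HFD. Its divergent neighbour Sars2, the mitochondrial seryl-tRNA synthetase gene starting 147 bases away, was higher in 129 on chow (1.04) and close to 0 on HFD (0.05).

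Mrps5, a small-subunit protein gene, was at 49.7 to 131.8 (median 77.5) in B6 chow and 82.4 to 197.3 (median 139.3) in 129 chow. The difference was 0.76 (SE 0.10, adjusted p = 6.65e-09), with overlapping values, and 129 was higher at all 6 times. Mrpl38 (1.01, SE 0.16), Mrps36 (0.91), Mrps9 (0.72), Mrpl58 (0.61) and Mrps27 (0.51) were also higher in 129 chow at each time. Without the 3 libraries with the most genes below 1, Mrpl58 was at 0.27, Mrps9 at 0.51 and Mrps36 at 0.71, all still past the test. Besides Mrps12, the members lower in 129 chow included Mrps14 (-0.67), Mrps10 (-0.52), Mrps6 (-0.41), Mrps18c (-0.39) and Mrpl9 (-0.22). After the GC correction Mrps14 (-0.23) and Mrps18c (-0.21) did not pass. Mrps5, Mrps10, Mrps12 and Mrps27 kept their call under every alternative.

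On HFD the strains differed in fewer members, 4 higher and 11 lower in 129, against 19.0% and 13.3% of all genes. The GC correction gave 7 and 14, against 17.7% and 16.9%, and all 15 calls remained with the same sign. Mrpl18, a large-subunit protein that binds ribosomal RNA, ran from 200.0 to 358.1 (median 275.1) in B6 and from 153.2 to 227.8 (median 195.4) in 129. The sets overlapped between 200.0 and 227.8, and the difference was -0.52 (SE 0.06, adjusted p = 2.01e-10). Mrpl48 (-0.46), Mrps21 (-0.42), Mrpl9 (-0.37) and Mrps7 (-0.33) were also lower in 129 at each of 6 times. Of 12 alternatives, the call was made again in 5 for Mrps21, 9 for Mrpl48, 10 for Mrps7 and 12 for Mrpl9. Mrps36 (0.63), Mrps6 (0.44), Mrps27 (0.35) and Mrpl33 (0.29) were the 4 higher ones. Without B6 HFD ZT22 replicate 3 this count of 4 was 2, and Mrps36 (0.56) and Mrps6 (0.41) did not pass. Mrps27 was higher in 129 on both diets under every alternative, and it shares 1991 bases with 6430562O15Rik on the opposite strand.

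**Figure D4:**
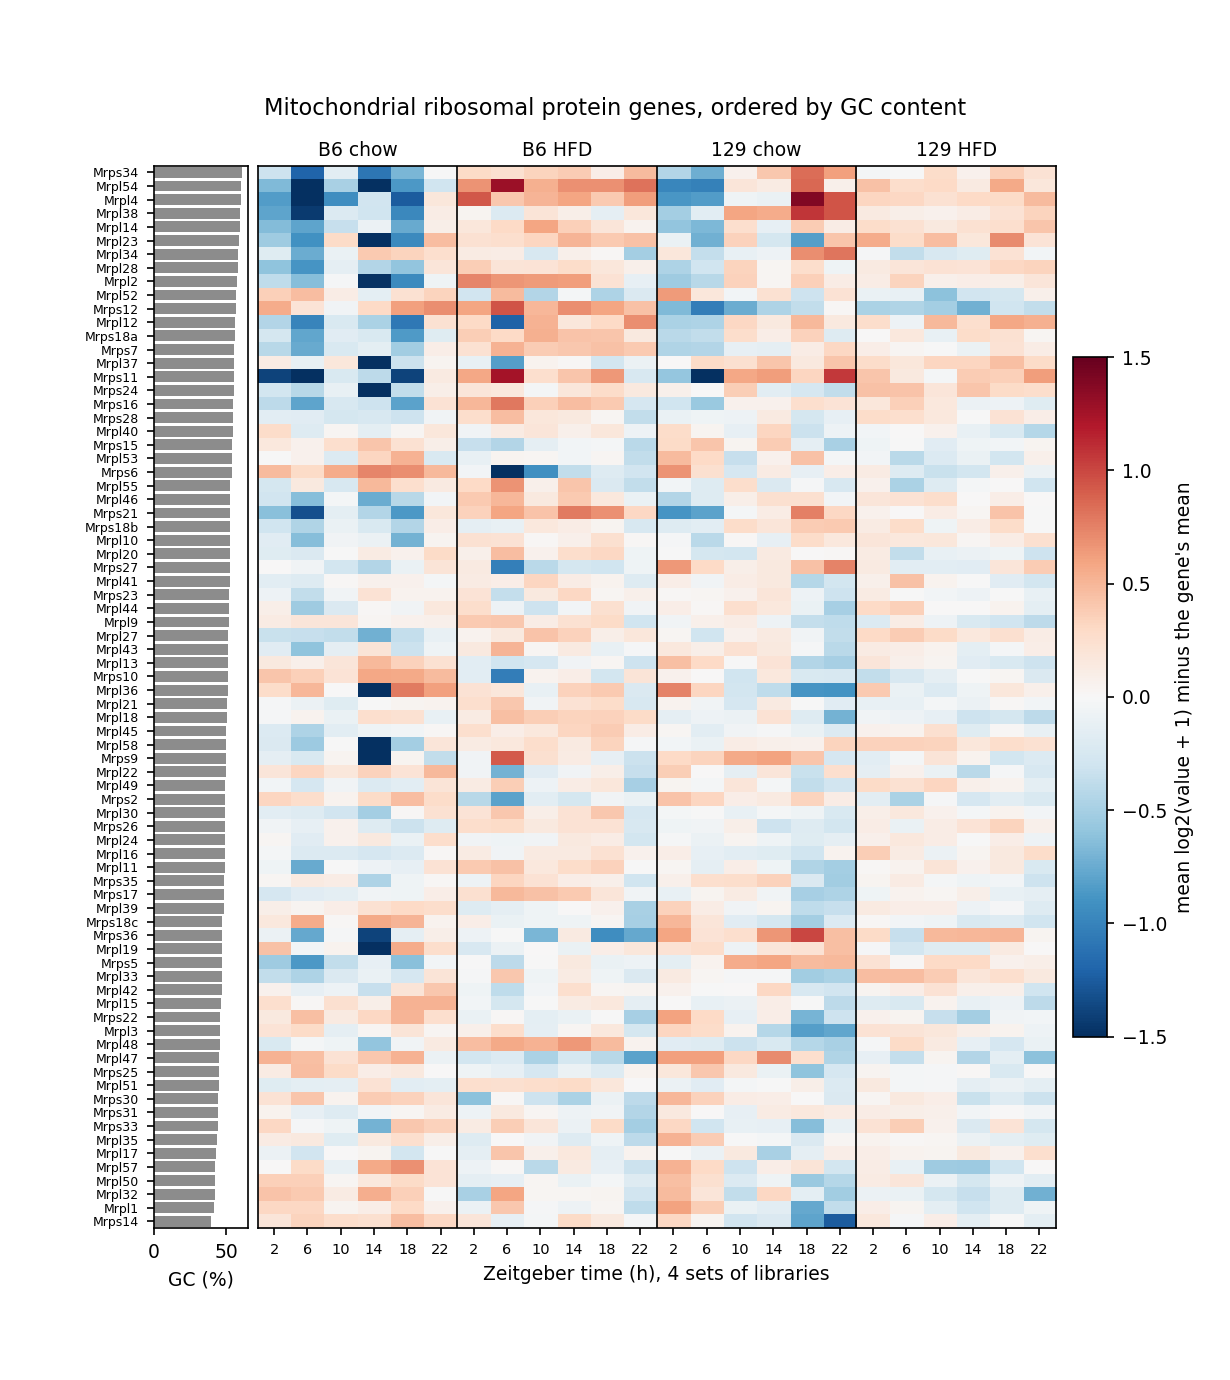
Mean log2(value + 1) of 3 libraries minus the gene's mean (colour, clipped at -1.5 and 1.5) for 78 genes ordered by GC content (bars at left, percent) at each zeitgeber time (x axis) in the 4 wild-type sets. In B6 chow the genes of high GC at the top are mostly below their mean, and in 129 chow their colour turns over the day.

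A daily rhythm was tested by fitting a 24 h cosine to each set. In B6 chow 1 member was called rhythmic, Mrpl34, with an amplitude of 0.52 (log2) and a fitted peak at ZT17.5, against 6.16% of all tested genes. In B6 HFD 1 was called, Mrps2, with an amplitude of 0.29 and a peak at ZT17.7, against 4.08%, and it did not pass without the 3 libraries named above (0.23) or without B6 HFD ZT22 replicate 3 (0.27). After the GC correction neither Mrpl34 nor Mrps2 passed, and 1 other member was called in each set, Mrpl4 in B6 chow and Mrpl12 in B6 HFD. Leaving out single libraries moved these counts between 0 and 3 in B6 chow (0 without B6 chow ZT6 replicate 2, 3 without B6 chow ZT18 replicate 2) and between 0 and 2 in B6 HFD. In 129 HFD none was called, with 6 at an unadjusted p under 0.05, against 7.04% of all genes called. In 129 chow 31 of the 78 were called, against 47.8% of all genes.

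The 31 rhythmic members of 129 chow fell into day and night peaks by GC content. In the lower GC band 13 were called, and 12 of them peaked between ZT0 and ZT12. In the upper band 13 were called, and 12 peaked between ZT12 and ZT24. The night group had the largest amplitudes: Mrps11 (1.05, peak ZT17.2), Mrpl4 (1.04, ZT18.2), Mrpl54 (0.87, ZT16.4), Mrps21 (0.77, ZT17.0) and Mrps34 (0.76, ZT17.6). In the day group were Mrpl3 (0.63, ZT6.2), Mrpl1 (0.57, ZT5.1) and Mrps14 (0.54, ZT6.9). The GC slope of the 129 chow libraries moved over the same hours, from means of -0.53 at ZT2 and -0.40 at ZT6 to 0.61 at ZT18 and 0.54 at ZT22. Mean Mir6236 went from 106 at ZT2 to 53230 at ZT22. Within ZT14, Mir6236 was 53.8 in replicate 1 and 39055 and 35151 in replicates 2 and 3, with GC slopes of -0.31, 0.31 and 0.26. The time means thus hide a split between libraries taken at the same time. Its part in the rhythm calls was not tested.

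With the GC and length trend removed 18 members were called in 129 chow, against 35.7% of all genes, 8 with a day peak and 10 with a night peak. Of these, 13 were among the 31, and 5 were called only after that step: Mrpl15, Mrpl51, Mrpl52, Mrps24 and Mrps31. Mrps21 (0.66), Mrps11 (0.82) and Mrpl4 (0.57) stayed past the test, and Mrpl54 and Mrps34 did not (adjusted p = 0.54 and 0.25). With the Mir6236 covariate 8 were called. The change of rhythm with diet was tested directly. In 129 it was called for 1 member, Mrps25 (0.39, adjusted p = 0.029), against 1.26% of all genes, and with GC and length removed its adjusted p was 0.33. This count was 0 without 129 chow ZT6 replicate 2 and 3 without 129 chow ZT6 replicate 3. In B6 it was called for none, with 12 at an unadjusted p under 0.05, against 0.0532% of all genes called.

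**Figure D5:**
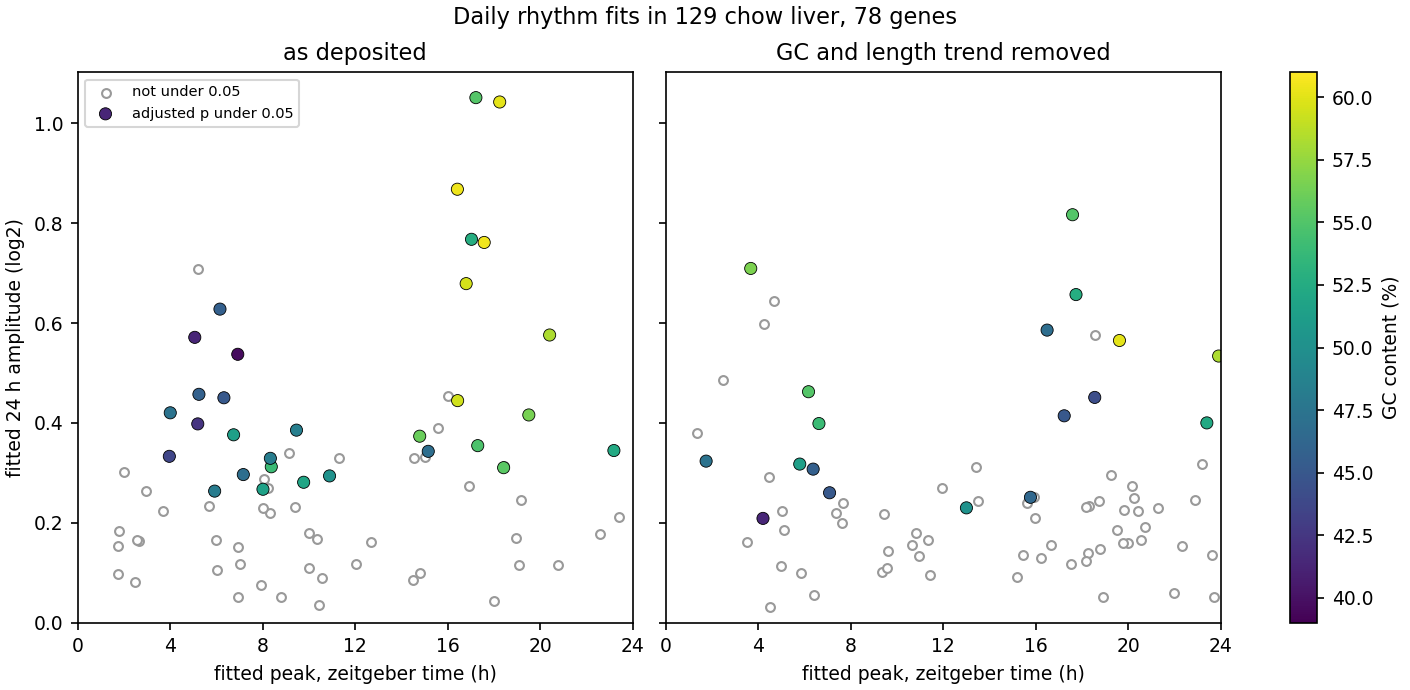
Fitted 24 h amplitude (y axis, log2) against fitted peak time (x axis, zeitgeber hours) for 78 genes in 129 chow, as deposited (left) and with GC and length trends removed (right); filled points have an adjusted p under 0.05 and are coloured by GC content. Of 31 filled points on the left the yellow, GC-rich ones peak at night with the largest amplitudes, and 18 are filled on the right.

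The Errg-Cre and Esrrg LKO libraries stand in tables of their own, normalised separately, so their levels are not set against the wild-type sets. The Errg-Cre table also has 18 columns that match no labelled sample, and Errg-Cre against GFP was not analysed here. Esrrg itself ran from 8.23 to 62.0 (median 25.9) in the libraries labelled Errg-Cre and from 7.64 to 39.4 (median 16.4) in those labelled Esrrg LKO. The deleted part is not given in the sources used here, so these levels check nothing about the genotype. Among members, Mrps7 had a median of 354.2 in the libraries labelled Errg-Cre and 298.2 in those labelled Esrrg LKO, and Mrps11 had 39.9 and 52.0.

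In the libraries labelled Errg-Cre 8 members were called rhythmic, against 17.9% of all genes in that table. Mrpl12, the stalk protein gene, had the largest amplitude (0.42, peak ZT10.8). Mrps34 (0.25) peaked with it at ZT10.7, and Mrpl13 (0.25), Mrpl3 (0.24) and Mrpl20 (0.22) peaked in the night, at ZT17.7, ZT20.3 and ZT14.0. After the GC correction 2 members were called, Mrpl34 and Mrps5, against 12.2% of all genes, and none of the 8 was among them. In the libraries labelled Esrrg LKO none was called, with 5 at an unadjusted p under 0.05, against 6.09% of all genes called.

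Across the 72 wild-type libraries the members did not follow a single course. The correlation of a gene with the median of the other members was highest for Mrpl11 (r = 0.71), Mrpl49 (0.67), Mrpl30 (0.64), Mrpl21 (0.63) and Mrpl20 (0.60). It was lowest for Mrps25 (-0.29), Mrps2 (-0.26), Mrps6 (-0.16), Mrps27 (-0.13) and Mrpl52 (-0.11), genes that fell with diet in B6. These values describe 72 libraries that share sets, times and the GC slopes given above. Of the 78 members 15 were called in none of the 5 comparisons of diet and strain, among them the 2 members with the highest and lowest level per kilobase, Mrpl24 and Mrpl19. The matching share of all tested genes is not given here, so this count describes the members only.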

How the data were processed

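Liver RNA-seq libraries were aligned and counted with STAR and HOMER on mm10, per the submitters' processing notes (versions are not given in the sources used here). The deposited tables hold a quantile-normalised signal per transcript made by the authors, and sorted values are identical between libraries of a table (total 10837743 in the wild-type table), so depth is unknown and no interval from counts was given. The 18 unlabelled columns of the Errg-Cre table were not used. Columns of the Esrrg LKO table carry an Errg-Cre name and were mapped by the table named in each description, the time and the replicate number. The members and gene lists were chosen with earlier results of these data known.

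Values were transformed as log2(value + 1), and genes with a table mean of at least 10 were kept. limma 3.58.1 (R 4.3.3) was fitted to all 4 wild-type sets with a mean for each set and time, with moderated variances following the mean, and Benjamini-Hochberg adjustment over all tested genes at 0.05. Rhythms used sine and cosine terms of 24 h. The GC check subtracted, in each library, splines (4 degrees of freedom each) of GC content and log2 length. GC content was taken from GENCODE M21 transcripts and length from the deposited data. Named genes were up to 6 called genes per direction and comparison with the largest difference, taking first those whose sign held at each of the 6 times, 6 for the interaction, up to 5 by amplitude in each rhythm test, up to 3 per pathway list, and Mrpl12, Mrps30, Mrps18a, Mrps36 and Esrrg always. Other genes named were chosen after their values were seen. The fits were tested on simulated data. Alternatives are given in the closing section, and the leave-one-library runs were chosen after seeing the data.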

Additional observations from a re-analysis of the deposited data

Results flagged for a closer look

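The diet difference of 22 of the 78 members differed between the strains by the interaction test (limma, adjusted p under 0.05). Over all tested genes 34.4% were called, so members were not called more often than genes at large. The named ones were Mrpl54 (-1.32 on the log2 scale, 129 minus B6), Mrpl4 (-1.30), Mrps11 (-0.999), Mrps9 (-0.92), Mrpl2 (-0.88) and Mrpl38 (-0.88). For Mrpl54 the diet difference was 1.75 in B6 and 0.43 in 129, and for Mrps11 it was 1.30 and 0.30. With the GC and length trend removed Mrps9 (-1.05) passed and the other named ones did not, with Mrpl54 at -0.48, Mrpl4 at -0.54, Mrps11 at -0.62, Mrpl2 at -0.30 and Mrpl38 at -0.16. None passed with the Mir6236 covariate. The rhythm of Mrps25, a small-subunit protein gene that overlaps Nr2c2 on the opposite strand, differed between chow and HFD in 129, with a change of 0.39. Its amplitude was 0.45 on chow, with a fitted peak at ZT6.3, and 0.07 on HFD.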

How the results depend on the processing

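With the GC and length trend removed, members lower on HFD in 129 numbered 13 (6 as deposited), members lower in 129 on chow 10 (16), members higher in 129 on HFD 7 (4), and rhythmic members 18 in 129 chow (31) and 2 in Errg-Cre (8), and Mrps34 in B6 turned to -0.012. With the Mir6236 covariate, diet in B6 kept 1 rise and 1 fall, diet in 129 gave 14 rises, strain on chow 2 higher and 4 lower, strain on HFD 8 and 7, the interaction 0, calls at single times 2 in B6 (87) and 2 in 129 (10), rhythmic members 0 in B6 HFD, 8 in 129 chow and 1 in Errg-Cre, and rhythm changes in 129 0. Under it Mrps34 (-0.31) and Mrps30 (0.038) in B6 and the interactions of Mrpl54 (0.51), Mrps11 (0.51), Mrpl2 (0.34) and Mrpl38 (0.30) changed sign. Fitting only the 2 sets compared gave 8 rises with diet in 129, 14 members higher in 129 on chow, and 7 higher and 17 lower on HFD. Times as categories gave 15 rhythmic members in B6 chow, 6 in B6 HFD and 4 in Errg-Cre, and 2 rhythm changes in B6 and 0 in 129. The filter at a mean of 1 gave 0 in B6 HFD, and summing transcripts gave 2 rhythm changes in 129. Without the 3 libraries with the largest share of genes under 1, diet in 129 gave 12 rises and 27 calls at single times, strain on HFD 19 lower, B6 HFD 3 rhythmic members and 129 3 rhythm changes. The cause of each move was not tested.

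Leaving out replicate 1, 2 or 3 throughout, or a single library, gave 21 to 36 rises and 17 to 22 falls with diet in B6, 1 to 11 and 2 to 9 in 129, 8 to 24 higher and 10 to 18 lower in 129 on chow, 2 to 6 and 3 to 16 on HFD, and 8 to 28 interactions. Rhythmic members ranged from 0 to 3 in B6 chow, 0 to 2 in B6 HFD, 10 to 35 in 129 chow and 0 to 1 in Errg-Cre, rhythm changes in 129 from 0 to 3, and single-time calls from 33 to 87 in B6 and 1 to 14 in 129. Without replicate 2 the interaction count was 8. In 129 HFD and Esrrg LKO no alternative called a rhythmic member.

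Replicate numbers did not pair the samples: over 18 same-numbered pairs the mean correlation of deviations was 0.04 for diet in B6 and -0.02 in 129. With the replicate number as a block, diet gave 33 rises and 19 falls in B6 and 5 and 5 in 129, the interaction 22, and 129 chow 31 rhythmic members. The block with the GC trend removed gave 13 falls with diet in 129, 10 members lower in 129 on chow, 18 and 1 rhythmic members in 129 chow and Errg-Cre, and -0.012 for Mrps34. A pseudocount of 5 moved no count by more than 1.5 times. Depth is unknown, so values near 0, as in Mrps11, may rest on few reads.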

Other observations

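Genes that work with the mitochondrial ribosome also moved both ways on HFD in B6. Over all tested genes 27.5% rose and 32.7% fell there, so movement both ways is not particular to these lists. Of 5 ribosome proteins under other symbols 2 rose and 1 fell: Gadd45gip1 (0.94), Aurkaip1 (0.64) and Ptcd3 (-0.33). Translation factors had 5 of 16 higher and 5 lower, with Tufm, the mitochondrial elongation factor that brings charged tRNAs, going from 171.6 ± 81.6 to 264.5 ± 34.4 (0.79). Assembly and rRNA factors had 6 of 22 higher and 5 lower, with rises in Mtg2 (1.10), Rbfa (1.09) and Dhx30 (1.02) and a fall in Noa1 (-0.77). Of the aminoacyl-tRNA synthetases 8 of 17 were higher and 5 lower, among them Sars2 (1.202) and Aars2 (1.01), which did not pass with the GC trend removed. Lars2, the leucyl-tRNA synthetase gene, was listed at 175554 ± 147288 in B6 chow and 353229 ± 130110 in B6 HFD, far above the other synthetase genes. Of the genes that transcribe and keep the mitochondrial genome, 3 of 10 were higher and 3 lower, with the polymerase gene Polrmt at 1.37. The differences printed in this paragraph are as deposited, before the GC correction and without the Mir6236 covariate.

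Regulators of nuclear genes for mitochondria had 2 of 10 higher and 6 lower on HFD in B6, and 1 higher and 5 lower in 129. The shares of all tested genes were 27.5% and 32.7% in B6 and 10.9% and 7.45% in 129. Esrrg was higher on HFD in both strains, by 0.92 in B6 (18 ± 12.9 to 29.0 ± 12.8) and by 0.78 in 129 (19.74 ± 10.33 to 30.3 ± 13.4). Esrra was higher on HFD in B6 (1.62), while its difference in 129 was -0.49 and did not pass. Differences of these regulators are likewise as deposited, without either correction. Ppargc1b, a coactivator gene, fell in both (-0.87 and -0.80), and so did Myc (-1.32 and -1.06). Between the strains, the glutamyl-tRNA synthetase gene Ears2 was higher in 129 on chow (0.90) and on HFD (1.35), as was the assembly factor gene Ngrn (0.75 and 0.62). Of the 4 adipocyte markers, Adipoq, Plin1 and Retn had medians of 0, and only 1 of the 4 passed the filter. The sum over the list, which thus rests mainly on Cfd, had a median of 2.89 in B6 chow and 72.8 in B6 HFD.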
